A study of Mus musculus with 6 samples.

Results

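The genes described here encode nuclear-encoded subunits of the 5 complexes of mitochondrial oxidative phosphorylation, measured in 6 pools of mouse dorsal root ganglion neurons. Members were chosen by symbol, as the genes named Nduf for complex I, Sdh for complex II, Uqcr for complex III, Cox4 to Cox8 for complex IV and Atp5 for complex V. Of 82 such symbols on the array, 80 had a probe set that carries that gene alone, among 18193 genes measured in this way. The other 2, Ndufa11 and Ndufs6, appeared only on probe sets that list several genes and have no value here. The rule used names and no measured value.

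Each pool was hybridised to 1 Affymetrix mouse expression array. The pools carried 3 codes in 2 size classes of neuron, big and medium to small. L3-B was the control and was made from 50 neurons a pool. L3-S and L6-R were neurons labelled by the retrograde lipophilic tracer DiI, which axons carry back to the cell body, and were made from 20 neurons a pool. DiI label, code and pool size therefore cannot be told apart when the labelled pools are set against L3-B. Each combination of code and size class was measured on 1 array, so none had a replicate. What the codes mean, where the tracer was placed, the strain, age and sex of the mice, and whether the pools are from separate animals are items not given in the sources used here.

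Oxidative phosphorylation passes electrons from NADH through complex I, and from succinate through complex II, by way of ubiquinone to complex III, cytochrome c and complex IV, where oxygen is reduced. Complexes I, III and IV pump protons across the inner mitochondrial membrane, and complex V, the ATP synthase, uses the gradient to make ATP. Most subunits are encoded in the nucleus, and the core membrane subunits of complexes I, III, IV and V are encoded in mitochondrial DNA, while complex II is wholly nuclear. Sensory neurons have long axons and depend on this pathway to power ion pumping and axonal transport.

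The trimmed mean of every array stood at 150, and signals under 32, close to array background, were found for 55.3% to 59.6% of probe sets on an array. Values are given as signal, and differences as log2(signal + 32), on the brightest probe set of each gene. The sensory neuron markers measured were over a signal of 32 in all 6 arrays (10 of 10). Of the 7 markers of striated muscle and brown fat, all were under 32 in all arrays, and 5 of 7 blood and immune markers were. The ratio of the 3 prime to the 5 prime control probe sets of beta-actin (Actb), which is higher when RNA or its amplified copy is shorter, differed widely between arrays. It was 13.9 in L3-B big and 3.73 in L3-B medium to small, 5.42 and 12.0 in the L3-S pair, and 8.31 and 8.42 in the L6-R pair. The Gapdh ratio ranged from 3.68 in L3-B medium to small to 8.77 in L3-B big.

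The subunit genes were bright in every pool. Of the 80 members, 72 lay in the brighter 50% of genes and were tested, among 9097 genes. They were 33 genes of complex I, 4 of complex II, 8 of complex III, 10 of complex IV and 17 of complex V. The signal was over 1000 in all 6 arrays for 57 of the 72. The highest array exceeded the lowest by 1.22-fold for Atp5g3, a gene for the c subunit of the ATP synthase rotor, up to 2.88-fold for Sdhd, a membrane anchor of complex II, with a median of 1.70-fold.

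The 8 members that were not tested stood at or near background. Among them are isoforms known from other tissues. Cox6a2, Cox7a1 and Cox8b are the heart and skeletal muscle forms of complex IV subunits, Cox4i2 is the form known for its induction by low oxygen, and Cox6b2 and Cox7b2 are forms known from testis. Over the 6 arrays Cox6a2 lay between 3.17 and 20.0, Cox7a1 between 16.6 and 44.4, Cox8b between 3.05 and 18.5, Cox4i2 between 10.2 and 25.8, Cox6b2 between 2.23 and 30.6 and Cox7b2 between 1.14 and 17.5. All of them but Cox7a1 stayed under a signal of 32 throughout, and Cox7a1 passed it in L3-B big and L3-S big. Cox8c, a testis form of subunit 8, was tested but stayed low, at 43.3 to 99.2. The widely expressed forms had high signals on their own probe sets: Cox4i1 ran from 5814 to 8588 and Cox7a2 from 7730 to 11838. Cox7c and Ndufb4, which are not tissue isoforms, also had dim probe sets, at 5.66 to 56.6 and 2.59 to 18.5. Brighter probe sets on the array that hold Ndufb4 list further genes and were not used.

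Set against each gene's own mean over the 6 arrays, the members stood highest in L3-B big. Their median deviation there was 0.34 on the log2 scale. It was 0.17 in L3-S medium to small, -0.01 in L3-S big, -0.13 in L3-B medium to small, -0.15 in L6-R big and -0.16 in L6-R medium to small, while the median of all genes tested lay between -0.03 and 0.02 in every array. L3-B big was the highest of the 6 arrays for 43 of 72 members, against 18.5% of all genes tested. An L6-R array was the lowest for 41 of 72 members, against 36.1% of all genes. The 2 arrays with the highest member medians are also those with the highest Actb ratios, 13.9 and 12.0. The other arrays were not ordered by the ratio. The L6-R arrays, at 8.31 and 8.42, had lower medians than L3-S big (5.42) and L3-B medium to small (3.73). The part of the Actb ratio in these levels was not tested. In pools of this kind, fewer cells of a type and less RNA per cell cannot be told apart.

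**Figure D1:**
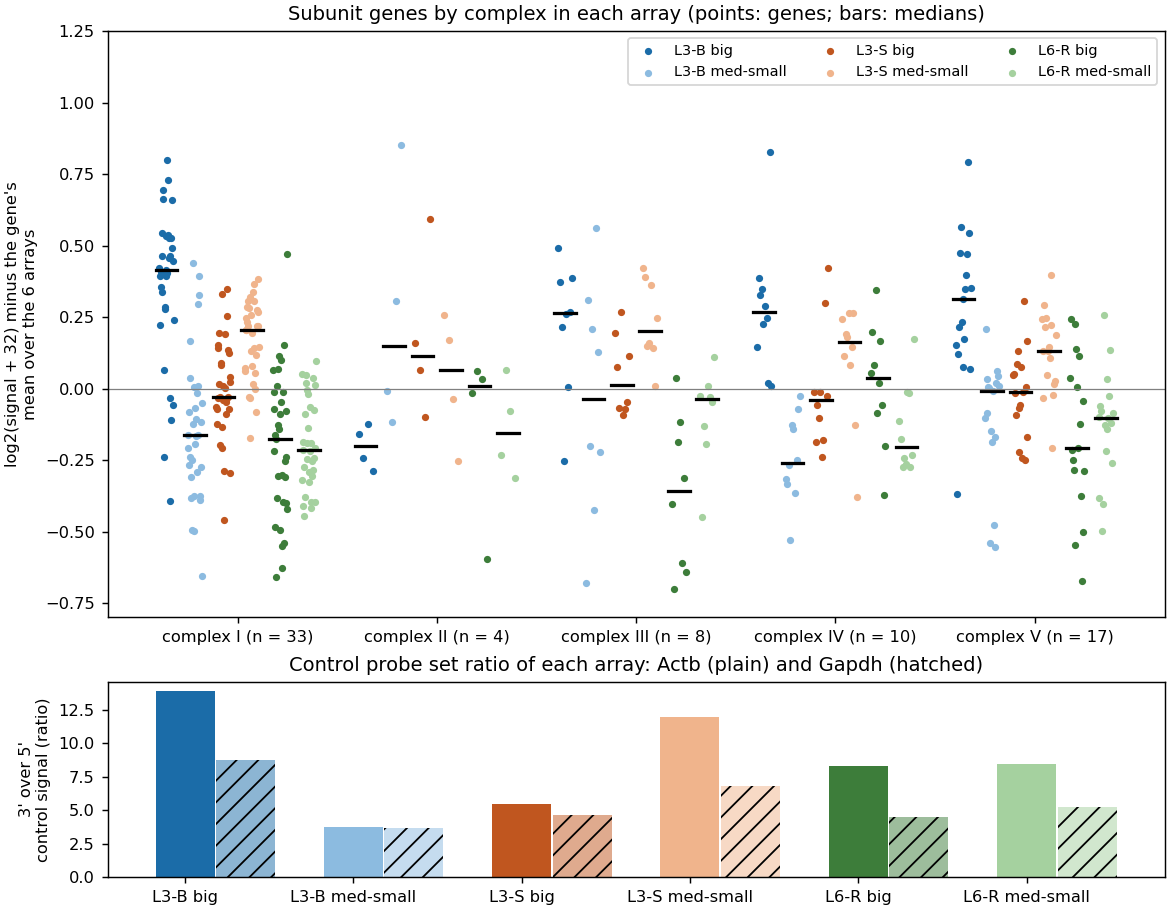
Deviation of each tested subunit gene from its own mean over the 6 arrays, in log2(signal + 32), by complex and array (points are genes, bars are medians), above the Actb and Gapdh 3 prime over 5 prime control ratios of the same arrays. Complexes I, III, IV and V have their highest median in L3-B big, whereas the complex II median is lowest there.

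The complexes did not all share this order. In L3-B big the median deviation was 0.41 for complex I, 0.27 for complex III, 0.27 for complex IV and 0.31 for complex V, and -0.20 for the 4 genes of complex II. Complex II had its highest median in L3-B medium to small, at 0.15. Complex III had its lowest in L6-R big, at -0.36. Complex IV was near its mean in L6-R big, at 0.04, and lowest in L3-B medium to small, at -0.26.

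The first comparison set big against medium to small neurons. In the additive limma fit over all 6 arrays, which assumes the same size difference in each code, 0 of 72 members passed an adjusted p of 0.05, as did 0% of all genes tested. At an unadjusted threshold of 0.05 there was 1 member, Uqcrfs1, against 3.52% of all genes. Members were higher in big neurons in 50 cases and lower in 22, with a median difference of 0.11, against -0.02 over all genes. The median was 0.17 for complex IV, 0.14 for complex I, 0.10 for complex V, -0.08 for complex III and -0.10 for complex II. On the probe sets used, all 10 genes of complex IV were on the higher side and all 4 of complex II on the lower. Another bright probe set was slightly lower for Cox5a (-0.02), Cox5b (-0.04), Cox6b1 (-0.04) and Cox6c (-0.08). Further bright probe sets of Cox5a, Cox5b, Cox6a1, Cox7a2, Cox7a2l and Cox8a were on the higher side. Without either L3-B array the members' median was -0.08, so its direction rested on the L3-B pair, and without either L3-S array it was 0.25. Under quantile normalization, and with unique probe set designs alone, it was 0.02. Quantile normalization moved the median to 0.076 for complex I, 0.097 for complex IV and 0.0028 for complex V. The size classes are those of the labels, and markers of neuron class did not separate along them. All 4 tested markers of small-diameter neurons were higher in the big pools, with a median of 0.32. Of the 5 markers of large myelinated-fibre neurons, 3 were higher and 2 lower, with a median of 0.18. In both lists 0 passed the adjusted threshold.

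Within the codes the pairs differed. The median member difference, big minus medium to small, was 0.49 in L3-B, -0.20 in L3-S and -0.01 in L6-R, while the median of all genes was -0.02, -0.01 and -0.02. Under quantile normalization the members' median was 0.24, -0.10 and -0.12, and with unique probe set designs 0.23, -0.07 and -0.06. Members were higher in the big pool in 61 of 72 cases in L3-B (47.9% of all genes), in 14 of 72 in L3-S (48%) and in 34 of 72 in L6-R (48%). Under quantile normalization the counts were 53, 25 and 21 of 72. With 1 array for each combination these differences between codes were not tested. The array with the higher Actb ratio had the higher member median in L3-B (13.9 against 3.73) and in L3-S (12.0 against 5.42), and in L6-R the ratios were 8.31 and 8.42. With the log2 Actb ratio as a covariate, which leaves 1 residual degree of freedom, the fitted median over all members was 0.05.

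On the probe sets used, 5 members kept 1 direction in all 3 pairs. Atp5o, the stalk subunit that confers oligomycin sensitivity, Cox7a2l, which takes part in joining complexes III and IV, and Ndufb1, an accessory subunit of the membrane arm of complex I, were higher in the big pool each time, 3 of 72 against 9.32% of all genes. Sdhb, the iron-sulfur subunit of complex II, and Uqcrfs1, the Rieske iron-sulfur protein of complex III, were lower each time. These were 2 of 72, against 12.6% of all genes. Some of these differences were close to 0, with 0.02 for Atp5o in the L3-B pair and -0.002 for Sdhb in the L6-R pair. In the L3-S pair another bright probe set was lower in the big pool for Atp5o (-0.88) and Cox7a2l (-0.03). Uqcrfs1 had signals of 2161 in the big and 3190 in the medium to small pool of L3-B, 2047 and 2382 in the L3-S pair, and 1401 and 2109 in the L6-R pair. Its fitted difference was -0.45 ± 0.19 (SE, 6 arrays), with a limma adjusted p of 0.998. Ndufb1 had signals of 180.5 and 128.2 in the L3-B pair, 187.2 and 122.5 in the L3-S pair, and 127.7 and 120.8 in the L6-R pair, a difference of 0.33 ± 0.19.

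**Figure D2:**
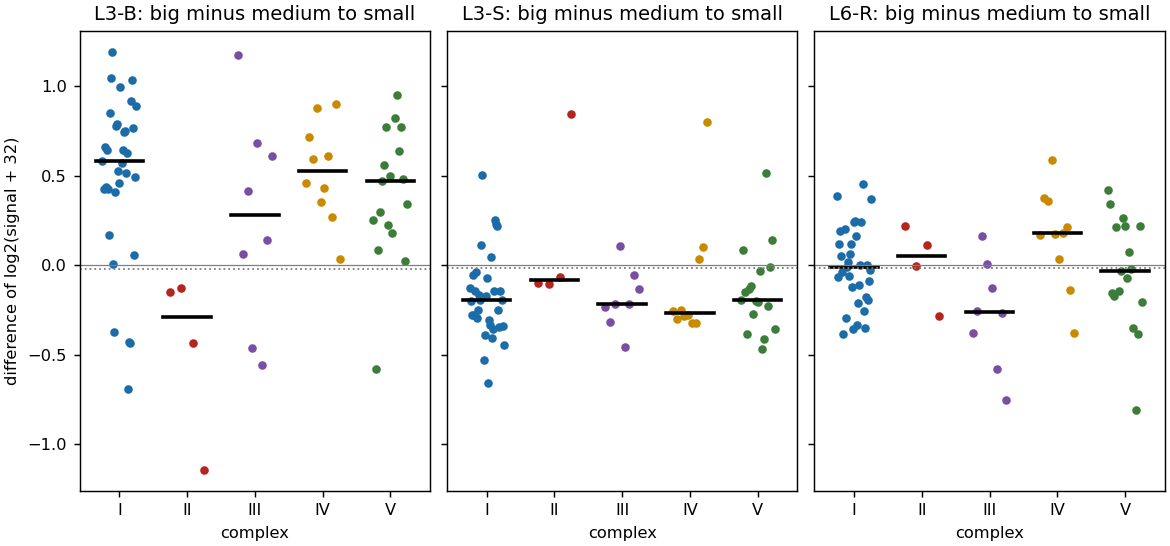
Difference between big and medium to small neurons for each tested subunit gene within each code, in log2(signal + 32), by complex (points are genes, bars medians, the dotted line the median of all genes tested). Most points lie above 0 in L3-B (61 of 72) and below 0 in L3-S (14 of 72 above), and the complex II genes lie below 0 in L3-B.

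The largest positive difference in the fit was that of Cox6a1, the widely expressed form of subunit 6a of complex IV. Its signals were 11638 in the big and 6307 in the medium to small pool of L3-B, 8502 and 10339 in the L3-S pair, and 11600 and 7712 in the L6-R pair. The big pool was the brighter in L3-B and L6-R and the dimmer in L3-S, and the fitted difference was 0.40 ± 0.24 (limma adjusted p = 0.998). Cox8a, the widely expressed subunit 8, stood at 1044 in L3-B big and at 436 to 563 in the other 5 arrays, with a fitted difference of 0.29 ± 0.23. Of the other genes with the smallest p in their complexes, Ndufa1, an accessory subunit of complex I, had a difference of 0.28, Atp5l, subunit g of ATP synthase, 0.27, and Atp5e, the epsilon subunit of its catalytic head, 0.18. Uqcr11, a small accessory subunit of complex III, had a difference of -0.17.

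The 11 members that were lower in L3-B big than in L3-B medium to small included all 4 genes of complex II. The others were Atp5b, the catalytic beta subunit of ATP synthase, Ndufs1, Ndufs3, Ndufs4 and Ndufa9 of complex I, and Uqcrc1 and Uqcrfs1 of complex III. In the L3-S pair, 7 of these 11 were higher in the big pool, whereas 7 of the other 61 were. Over all genes the corresponding shares were 57.5% and 37.7%. Ndufs1, the largest iron-sulfur subunit of complex I, ran at 1178 and 1920 in the L3-B pair, 1864 and 1556 in the L3-S pair, and 1734 and 1256 in the L6-R pair. Atp5b ran at 3336 and 4993 in the L3-B pair, 4477 and 4214 in the L3-S pair, and 5117 and 4026 in the L6-R pair. Both genes thus had a lower big pool in L3-B and a higher big pool in the other codes.

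Within complex II, Sdha, the flavoprotein that oxidises succinate, ran at 2422 and 2691 in the L3-B pair, 3031 and 3242 in the L3-S pair, and 2679 and 2298 in the L6-R pair. Sdhb ran at 2746 and 3000, 3412 and 3664, and 3401 and 3406 in the same order. The membrane anchor Sdhc ran at 460 and 632, 469 and 491, and 517 and 476. The other anchor, Sdhd, ran at 474 and 1084, 900 and 487, and 377 and 466, the widest range of any tested member. The fitted size differences were -0.01 for Sdha, -0.08 for Sdhb, -0.13 for Sdhc and -0.19 ± 0.33 for Sdhd. A second probe set of Sdhd gave 0.31, the opposite direction.

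Agreement between probe sets of the same gene was partial. Of 40 members with more than 1 bright probe set, 27 had the same sign on all of them in the L3-B pair, 20 in the L3-S pair and 26 between L6-R and L3-S. The genes whose sign differed in the L3-B pair were Atp5a1, Atp5d, Atp5k, Atp5pb, Cox6b1, Cox6c, Ndufb11, Ndufb6, Ndufs4, Ndufv1, Sdhd, Uqcrb and Uqcrc2. With the probe set designs that can bind further transcripts left out, 49 members were tested.

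The second comparison set L6-R against L3-S, both labelled with DiI and both of 20 neurons. No member passed the limma adjusted p of 0.05 (0 of 72), against 3.18% of all genes tested. At an unadjusted threshold of 0.05 there were 7 members, against 15.6% of all genes, and all 7 were lower in L6-R, against 8.17% of all genes lower at that threshold. Members were lower in L6-R in 60 of 72 cases, with a median difference of -0.24, against -0.01 over all genes. The median was -0.17 within the big pools and -0.30 within the medium to small pools. For 46 of 72 members L6-R was lower in both size classes, against 33.9% of all genes. For 39 of 72 both L6-R arrays lay below both L3-S arrays, against 27.3% of all genes, and for 2, Atp5g2 and Ndufa7, both lay above, against 25.3%.

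The size of this shift in the fit changed with the arrays used, while both matched pairs were negative (-0.17 in big, -0.30 in medium to small). The members' median was -0.04 without L3-S medium to small, -0.42 without L3-S big, -0.16 without L6-R big and -0.30 without L6-R medium to small. Without an L3-S array the fit takes the size difference from the L3-B and L6-R pairs. Its median was then 0.25, whereas the L3-S pair itself had -0.20. The smallest difference that passed the threshold among all genes was 1.02, and the median standard error of a member was 0.26, and no member had a difference that large. With the log2 Actb ratio as a covariate the median stayed at -0.24, and 2 members passed, Ndufa3 (limma adjusted p = 0.0434) and Uqcr11 (limma adjusted p = 0.017), while 10.9% of all genes did.

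**Figure D3:**
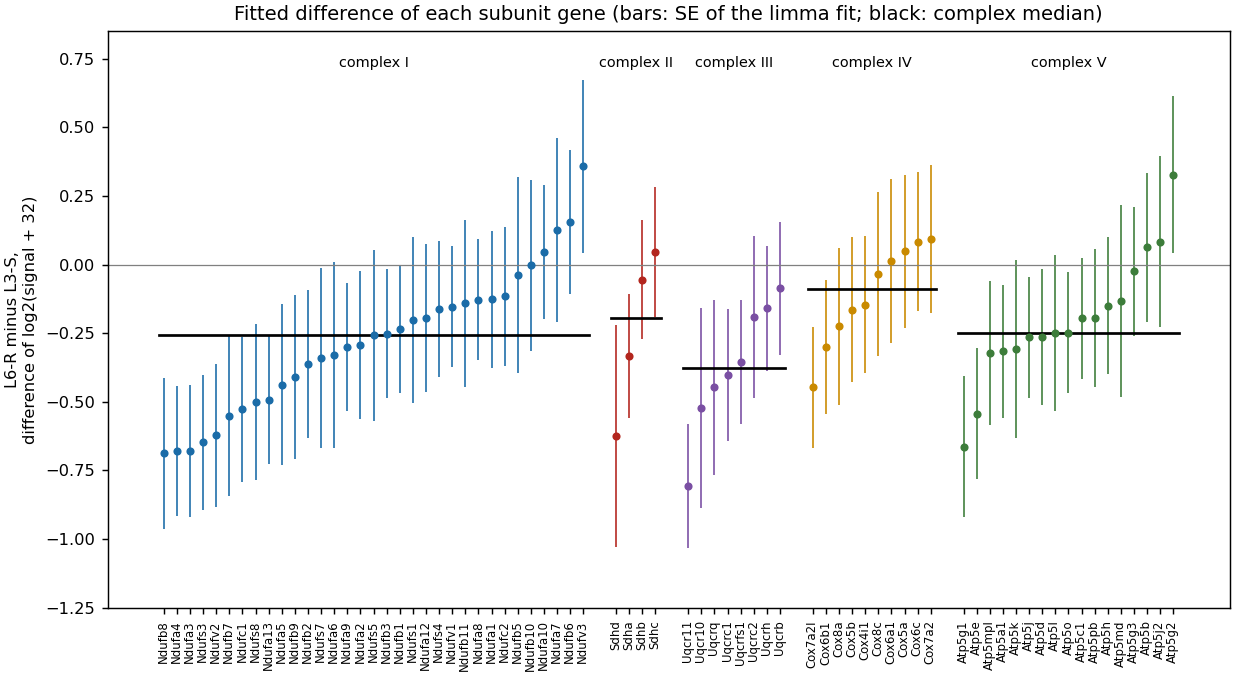
Difference L6-R minus L3-S for each tested subunit gene in log2(signal + 32), by complex, with the standard error of the additive fit. Of the 72 genes 60 lie below 0, Uqcr11 lies lowest at -0.81, and 8 of 8 complex III genes are on the lower side.

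By complex, the median difference L6-R minus L3-S was -0.26 for complex I (29 of 33 lower), -0.19 for complex II (3 of 4), -0.38 for complex III (8 of 8), -0.09 for complex IV (6 of 10, and -0.16 under quantile normalization) and -0.25 for complex V (14 of 17). The complex IV count of 6 of 10 rests on the probe sets used. Among its genes counted as higher, Cox5a (-0.36), Cox6c (-0.48) and Cox7a2 (-0.12) had another bright probe set that was lower in L6-R. Other bright probe sets of Cox5a (0.04) and Cox6a1 (0.16) were on the higher side. In complex IV the 2 size classes had medians of opposite sign, 0.10 in big and -0.32 in medium to small neurons. Within complex I the 5 genes of the quinone-reducing arm had a median of -0.44 and were lower each time on the probe sets used. A further bright probe set of Ndufs8, in this arm, gave 0.29, while its others ran from -0.59 to -0.08. The 9 genes of the NADH-oxidising arm had a median of -0.20 and the 18 of the membrane arm -0.24, with Ndufa4 placed in none of these arms. Within complex V the median was -0.26 for the catalytic head and -0.25 for the stalk and accessory subunits.

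Uqcr11 had the smallest p of all members. Its signal was 1777 in L3-S big and 2221 in L3-S medium to small, 1025 and 1227 in the L6-R pair, and 2192 and 2096 in the L3-B pair. Both L6-R arrays lay below the other 4. The difference was -0.81 ± 0.23, a 1.75-fold lower value in L6-R, with a limma adjusted p of 0.113. With the L3-S and L6-R arrays alone the difference was again -0.81, with a limma adjusted p of 0.047. In that fit 7.31% of all genes passed, against 3.18% in the main fit. Leaving out either L3-B array also gave -0.81, since the difference then rests on the same L3-S and L6-R arrays.

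In complex I, Ndufa4 stood at 3129 and 3210 in the L3-S pair and at 1716 and 2252 in the L6-R pair, with 3462 and 3069 in the L3-B pair. Its symbol places it in complex I, but its protein is now regarded as a subunit of complex IV. Its difference was -0.68 ± 0.24 (limma adjusted p = 0.196). Ndufa3, an accessory subunit of the membrane arm, stood at 4116 and 4541 in the L3-S pair, 2653 and 2727 in the L6-R pair, and 5154 and 3825 in the L3-B pair, a difference of -0.68 ± 0.24 (limma adjusted p = 0.202). Its second bright probe set gave -0.70. Both genes had both L6-R arrays below the other 4.

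The remaining members at the unadjusted threshold had the same arrangement of arrays. They were picked by this difference, so L6-R arrays below L3-S arrays follow largely from the choice. Ndufs3, a core subunit of the quinone-reducing arm, stood at 2233 and 1897 in the L3-S pair and 1189 and 1427 in the L6-R pair, and Ndufb8, an accessory subunit of the membrane arm, at 3561 and 3442 against 2008 and 2328. Atp5g1, a gene for the c subunit, stood at 1337 and 1452 in the L3-S pair, 824 and 914 in the L6-R pair, and 1818 and 1221 in the L3-B pair. Ndufv2, an iron-sulfur subunit of the NADH-oxidising arm, stood at 3816 and 4841 against 2756 and 2805. The differences were -0.65 for Ndufs3, -0.69 for Ndufb8, -0.66 for Atp5g1 and -0.62 for Ndufv2.

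The 3 genes for the c subunit, whose mature proteins are the same, had differences of either sign. Atp5g1 had the -0.66 given above (limma adjusted p = 0.247). Atp5g2 stood at 495 and 604 in the L3-S pair and 686 and 703 in the L6-R pair, a difference of 0.33 ± 0.29, and Atp5g3 at 8166 and 9388 against 9442 and 7842, a difference of -0.03 ± 0.23. The difference between these 3 genes was not tested.

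**Figure D4:**
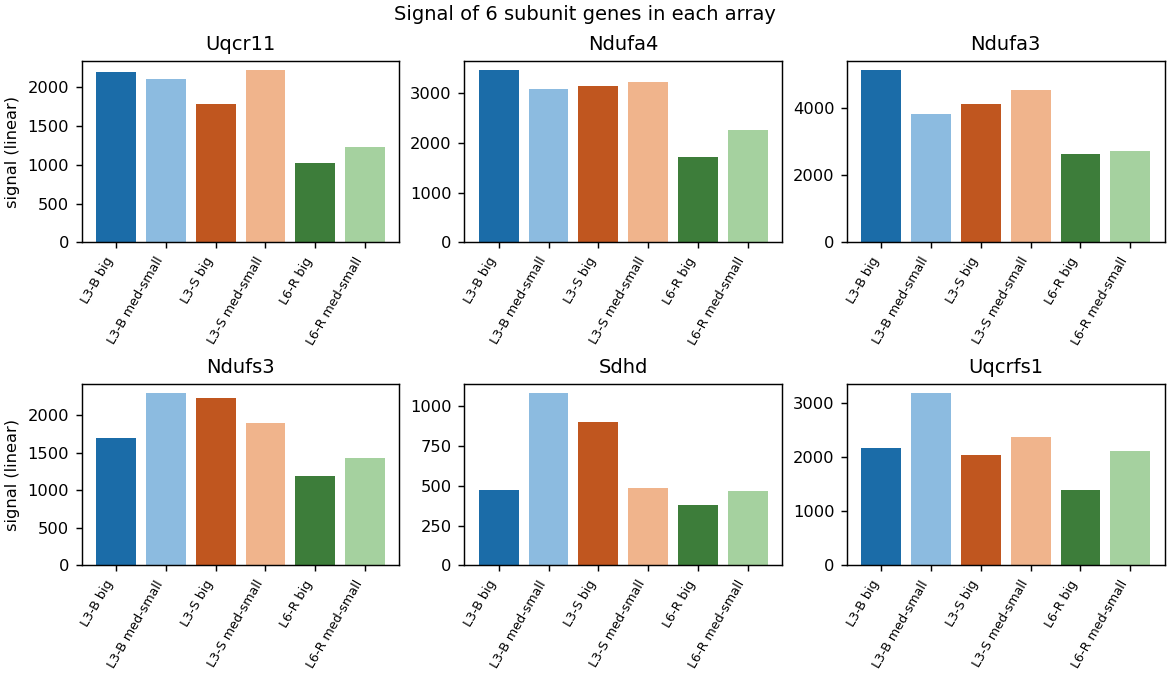
Signal on a linear scale of Uqcr11, Ndufa4, Ndufa3, Ndufs3, Sdhd and Uqcrfs1 (bars, 1 array each, each panel with its own axis from 0). Both L6-R bars of Uqcr11, Ndufa4, Ndufa3 and Ndufs3 are below the other 4, and Sdhd is highest in L3-B medium to small, then in L3-S big.

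The other named members did not reach the unadjusted threshold. Sdhd had a difference of -0.63 ± 0.41 (limma adjusted p = 0.515), with L3-S arrays of 900 and 487 and L6-R arrays of 377 and 466, and its second bright probe set gave -0.28. Without L3-S medium to small its limma adjusted p was 0.0421, with a difference of -1.40. The difference was -0.33 for Sdha, -0.05 for Sdhb and 0.05 for Sdhc. It was -0.40 for Uqcrc1, a core protein of complex III, -0.45 for Cox7a2l, -0.30 for Cox6b1, a complex IV subunit on the side of the intermembrane space, and -0.54 for Atp5e. The highest value was 0.36, for Ndufv3.

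The L3-S and L6-R pools also differed in markers of neuron class. The summed signal of the 5 markers of large myelinated-fibre neurons was 17194 and 20033 in the L3-S pair and 12790 and 10674 in the L6-R pair. It was 6182 and 5538 against 10849 and 8529 for the 4 markers of small-diameter neurons. Such sums are weighted to the brightest markers, and the markers of a list were not uniform. All 5 large-fibre markers were lower in L6-R in the fit, but the brightest, Nefh, had a difference of only -0.14. Of the 4 small-diameter markers 3 were higher, with Tac1 at 1.55 and P2rx3 at 0.30, and 1, Scn11a, was lower, at -0.31. Parvalbumin (Pvalb), a calcium buffer of proprioceptive neurons, differed by -5.07 ± 0.32 (limma adjusted p = 0.000566). Its signals were 2084 and 3413 in the L3-S pair and 69.1 and 31.9 in the L6-R pair. The L6-R values are close to background, so the size of this difference depends on the pseudocount. The 10 markers of satellite glia and Schwann cells summed to 13999 and 17503 in the L3-S pair and 15255 and 21209 in the L6-R pair, with 7 of 10 over 32 in all arrays. The 8 markers of connective tissue and vessels summed to 1257 and 1697 against 2477 and 3964. Of this, Vim alone gave 703 and 1148 against 1669 and 2603. The part of these cell classes in the members' values was not tested.

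Promoters were read for the members with a RefSeq entry, 66 of 80, as the 250 bases before the transcription start in GRCm38.p6. Nuclear respiratory factor 1 (NRF1) and the ETS-family factor GABP are known regulators of these genes. All motifs were searched on both strands. The NRF1 motif, GCGCA, then any base, then GCGC, was found in 10 of 66 members (15.2%), in 9.49% of 7437 tested genes and in 3.86% of 27025 genes of the table. The ETS motif CCGGAAGT was found in 3 members (4.55%), against 6.36% and 2.93%, and the YY1 motif AANATGGCG in 1 (1.52%), against 2.3% and 1.12%. The estrogen-related receptor motif TCAAGGTCA, added after the values of Esrra given below had been seen, was found in 1 member, Atp5g3, against 0.282% and 0.366%. In all, 14 of 66 windows (21.2%) held one of these motifs, against 17.3% of tested genes. Atp5h held both an NRF1 and an ETS motif, and none of the matches overlapped another kind. A match is a description of letters and not a bound site.

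The windows shown are those of Uqcr11, the member with the largest difference between L6-R and L3-S, Cox6a1, that with the largest positive size difference, and Sdhd, that with the widest range over arrays. All lie on the minus strand and read 5′ to 3′ towards the start, at chr10:80406822-80407071, chr5:115348959-115349208 and chr9:50603850-50604099, with motif matches in capitals. Uqcr11 holds 1 ETS match, Cox6a1 2 NRF1 matches and Sdhd 1 NRF1 match.
Uqcr11: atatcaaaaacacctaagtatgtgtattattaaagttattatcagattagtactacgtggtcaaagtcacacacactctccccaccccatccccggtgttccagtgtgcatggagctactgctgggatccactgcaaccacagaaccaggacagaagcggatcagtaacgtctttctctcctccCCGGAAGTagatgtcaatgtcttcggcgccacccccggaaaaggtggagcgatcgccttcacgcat
Cox6a1: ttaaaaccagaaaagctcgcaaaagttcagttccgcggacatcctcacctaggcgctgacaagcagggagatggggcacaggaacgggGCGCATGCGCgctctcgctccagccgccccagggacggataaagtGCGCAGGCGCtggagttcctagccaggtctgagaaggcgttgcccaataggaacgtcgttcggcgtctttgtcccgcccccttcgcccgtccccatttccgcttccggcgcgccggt
Sdhd: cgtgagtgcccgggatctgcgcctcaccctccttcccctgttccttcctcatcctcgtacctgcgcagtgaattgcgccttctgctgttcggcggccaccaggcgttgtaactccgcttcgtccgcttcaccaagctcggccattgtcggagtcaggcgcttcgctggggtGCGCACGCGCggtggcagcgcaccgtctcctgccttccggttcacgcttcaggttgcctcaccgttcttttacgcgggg

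The third comparison set the 4 DiI-labelled pools against the 2 L3-B pools. No member passed the limma adjusted p of 0.05 (0 of 72), against 4.31% of all genes. At the unadjusted threshold there were 2, Uqcr11 and Cox8a, against 16.7% of all genes. Members were lower with DiI in 52 of 72 cases, with a median of -0.12, against 0.02 over all genes. The size classes went in opposite directions, with a median of -0.39 in big and 0.14 in medium to small neurons. Without L3-B big the fitted median was 0.14, and without L3-B medium to small it was -0.39, without L3-S big -0.05 and without L3-S medium to small -0.23. Under quantile normalization the median within medium to small neurons was close to 0. The median was -0.18 for complex I (28 of 33 lower), -0.0047 for complex II (0.0095 under quantile normalization), -0.07 for complex III, -0.01 for complex IV (-0.04 under quantile normalization) and -0.10 for complex V.

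Few members separated the labelled from the control pools. All 4 DiI arrays lay below both L3-B arrays for 2 members, Atp5mpl and Uqcrh, against 9.28% of all genes. They lay above both for 2, Ndufa8 and Sdhb, against 12.8%. Ndufa8, an accessory subunit of complex I, stood at 1983 and 1970 in the L3-B pair and at 2426 to 2862 in the DiI pools, a difference of 0.37 ± 0.19 (limma adjusted p = 0.397). Sdhb stood at 2746 and 3000 in the L3-B pair and at 3401 to 3664 in the DiI pools, a difference of 0.27 ± 0.19. Atp5mpl, a small membrane subunit of ATP synthase, stood at 2752 and 1963 in the L3-B pair and at 1318 to 1899 in the DiI pools, a difference of -0.45 ± 0.23.

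The other named members had these values. Cox8a had a difference of -0.57 ± 0.25 (limma adjusted p = 0.297), with the L3-B arrays at 1044 and 545, and its other bright probe set gave -0.03. Atp5md, another small subunit of ATP synthase, stood at 4862 and 2826 in the L3-B pair, 2339 and 2744 in the L3-S pair, and 1738 and 3066 in the L6-R pair, a difference of -0.61 ± 0.30 (limma adjusted p = 0.373). Without L3-B medium to small its limma adjusted p was 0.0334. Ndufb8 had a difference of -0.54 ± 0.24, with L3-B arrays of 5199 and 3085. Uqcr11 had a difference of -0.51 ± 0.20 (limma adjusted p = 0.233), Uqcrfs1 of -0.42 ± 0.20 (limma adjusted p = 0.333), Sdhd of -0.42 ± 0.35 and Cox7a2l of 0.17 ± 0.19. With the Actb ratio as a covariate 2 members passed, Atp5md and Cox8a, while 11.9% of all genes did. Of the 10 glial markers 9 were tested, and 7 of them were higher in the DiI pools and 2 lower. The limma adjusted p was under 0.05 for 4 of the 7, against 3.07% of all genes called higher. All 3 connective tissue markers tested, of 8, were higher and passed (Col1a2, Dcn and Vim). Summed glial signal was 12904 and 11996 in the L3-B pair and 13999 to 21209 in the DiI pools. Summed connective tissue signal was 937 and 441 against 1257 to 3964. Vim alone gave 618 of the 937 in L3-B big and 2603 of the 3964 in L6-R medium to small. Col1a1 and Pecam1 of the same list stayed under 32 in all arrays. The part of such cells in the members' values was not tested.

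Genes that work beside the subunits were taken from lists. Their values came from the same fit as the members. Of the mitochondrially encoded subunits only ND5 of complex I had a probe set that could be used, at 4742 and 3716 in the L3-B pair, 3912 and 3526 in the L3-S pair, and 5021 and 4127 in the L6-R pair. It was higher in L6-R by 0.29 ± 0.22, a direction opposite to the median of complex I. In the size comparison 0 genes of any list passed the adjusted threshold, as was the case over all genes.

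Between L6-R and L3-S, 1 gene of these lists passed. Esrra, the estrogen-related receptor alpha, a nuclear receptor known for driving oxidative metabolism genes, fell in L6-R by 1.07 ± 0.22 on the log2 scale (limma adjusted p = 0.0391). Its signals were 251 and 362 in the L3-S pair, 101 and 157 in the L6-R pair, and 226 and 300 in the L3-B pair, so both L6-R arrays lay below the other 4. The call was lost without any 1 of the L3-S or L6-R arrays, at limma adjusted p values from 0.116 to 0.355, with a pseudocount of 1 (0.067) and with no filter on dim genes (0.0816). The mean of its probe sets gave -0.49, with a limma adjusted p of 0.264. The other 14 of 15 tested regulators of mitochondrial gene expression did not pass. Pprc1, a coactivator related to Ppargc1a, was higher in L6-R by 0.72 ± 0.24 (limma adjusted p = 0.17). Ppargc1a, a coactivator of mitochondrial biogenesis, differed by -0.44 and Tfam, the mitochondrial DNA packaging factor, by -0.31.

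The other lists had medians from -0.32 to -0.13, against -0.24 for the members. Over all genes tested 51.2% were lower in L6-R. The 40 tested assembly factors had a median of -0.19 between L6-R and L3-S, with 32 lower and 0 past the threshold. Atpaf1, which assembles the ATP synthase head, stood at 1452 and 1320 in the L3-S pair and 778 and 657 in the L6-R pair, a difference of -0.92 ± 0.22 (limma adjusted p = 0.0701), and Cox16, a complex IV assembly factor, had -0.87. The 8 electron carriers and further subunits had a median of -0.23 and 0 past the threshold, with Coq7, an enzyme of ubiquinone synthesis, at -0.84 (limma adjusted p = 0.0936). The 13 citric acid cycle enzymes had a median of -0.27, with 11 lower and 0 past the threshold. The 14 glycolysis enzymes had a median of -0.32, with 11 lower and 0 past the threshold. Ldhb, a lactate dehydrogenase subunit, had -1.06 (limma adjusted p = 0.0911) and Hk2, a hexokinase, 0.89. The 8 carriers of the outer membrane and of adenine nucleotides had a median of -0.13 and 0 past the threshold, with Ckmt1, the mitochondrial creatine kinase, at -0.79 and Slc25a5, an adenine nucleotide carrier, at -0.67.

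In the DiI comparison 1 gene of these lists passed. Aldoc, a glycolytic aldolase also known as an astrocyte and glial gene, rose in the DiI pools by 1.40 ± 0.22 (limma adjusted p = 0.0125). Its signals were 661 and 553 in the L3-B pair, 1882 and 2807 in the L3-S pair, and 1049 and 1317 in the L6-R pair, so all 4 DiI arrays lay above both L3-B arrays. Without L3-B medium to small the difference was 1.05 (limma adjusted p = 0.0514), and the mean of its probe sets gave 0.83 (limma adjusted p = 0.126). The medians of the lists lay between -0.11 for the assembly factors and 0.01 for the glycolysis enzymes.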

How the data were processed

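Total RNA of 6 pools of picked neurons was isolated with a PicoPure kit, per the labels' protocols. The deposited table holds the authors' linear signal intensity for 45037 probe sets and 64 controls. How probe sets were summarised and scaled was not given in the sources used here. Each array had a mean of 150 after trimming 2% at each end, so no further normalization was applied. Of the probe sets, 34945 carried 1 gene symbol, 932 several and 9160 none, by the platform annotation. Values were taken as log2(signal + 32). The brightest probe set by mean represented each of 18193 genes, and the upper 50% (9097 genes, minimum mean 6.41) were tested. Gene identifiers matched 80 of 80 members in the RefSeq table, and 0 symbols changed.

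R 4.3.3 with limma 3.58.1 fitted code and size class additively to the 6 arrays (2 residual and 6.46 prior degrees of freedom, two-sided), with Benjamini-Hochberg adjustment over all genes tested. The fit was tested on simulated data. With 1 array for each combination, p-values measure the spread left by the additive fit, which may be technical, and the number of arrays limits the precision. The members and lists were chosen with earlier results of these data known. Named genes were those past the threshold, the 2 with the smallest unadjusted p in each complex and comparison, complex II, tissue isoforms and up to 3 related genes of a list. Others were named after their values were seen: those at the unadjusted threshold, those that kept 1 direction or did not overlap, the 11 lower in L3-B big, the c subunit genes, the widest and narrowest ranges, and Ppargc1a and Tfam. Alternatives changed the normalization, pseudocount (1 and 128), filter, probe set rule, variance model, covariate and arrays used.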

Additional observations from a re-analysis of the deposited data

Results flagged for a closer look

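In 9 cases the median difference of a set had opposite signs in the codes or size classes. None of these differences was tested, since each combination of code and size class had 1 array. For big minus medium to small, the lowest and highest medians over the 3 codes lay 0.69 apart for all members (-0.20 in L3-S and 0.49 in L3-B), 0.78 apart for complex I (-0.20 and 0.58) and 0.80 apart for complex IV (-0.27 and 0.53). They lay 0.66 apart for complex V (-0.19 and 0.47) and 0.54 apart for complex III (-0.26 in L6-R and 0.28 in L3-B). Complex II had the opposite order, with -0.29 in L3-B and 0.06 in L6-R, 0.35 apart. For L6-R minus L3-S, complex IV had 0.10 in big and -0.32 in medium to small neurons, 0.43 apart. For DiI minus L3-B, complex II had 0.26 in big and -0.17 in medium to small neurons, 0.43 apart, and complex IV had -0.26 and 0.24, 0.50 apart.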

How the results depend on the processing

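For big minus medium to small, 0 members passed under any of 16 alternatives, and the members' median ran from -0.080 to 0.25 over the fits that left out 1 array, and was -0.080 with only the L3-S and L6-R arrays. It was 0.02 under quantile normalization. The second probe set of Sdhd reversed its size difference to 0.31. For L6-R minus L3-S, 2 members passed with the Actb covariate, 1 with only the L3-S and L6-R arrays, and 0 to 1 over the fits that left out 1 array, whose medians ran from -0.42 to -0.040. The median of complex II was -0.22 under quantile normalization. For DiI minus L3-B, 2 members passed with the Actb covariate and 0 to 1 over the fits that left out 1 array, whose medians ran from -0.39 to 0.14. Probe sets of Ndufb8 and Cox8a at or near background gave 0.028 and 0.14, from which no direction is read, and quantile normalization turned complex II to 0.0095. Alternatives within pairs were chosen after seeing the data. The median of L6-R minus L3-S within big neurons was -0.30 under quantile normalization and -0.35 with unique probe set designs. The median of DiI minus L3-B within medium to small neurons was -6e-04 under quantile normalization, where all genes had -7e-04, so no direction was left. It was -0.076 with unique probe set designs, the opposite sign to the main value. The causes were not tested, other than that some fits use fewer arrays or probe sets. Over all genes, the share past the threshold between L6-R and L3-S ran from 0.588% with no filter to 10.9% with the Actb covariate, and for DiI minus L3-B from 1.08% to 11.9%. The additive fit already sets arrays of a code or a size class against each other, and no replicate number links arrays. Signals under 32 have no resolved differences.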
